A study of Homo sapiens with 4 samples.

Results

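The regions described here are wide BRD8 domains at gene ends that were called in 2 colorectal cancer lines. A member is a BRD8 region of HCT116 cells on chromosomes 1 to 22 and X that is at least 3000 bp wide, has its summit within 1000 bp of either end of a protein-coding gene and overlaps a BRD8 region of SW480 cells by at least 1 bp. Of 22303 HCT116 regions, 385 were members, named here by the coding gene with the nearest end, and both lists together held 35177 regions. The members lay nearest to 385 different genes. They were set beside the 3018 shared gene-end regions under 3000 bp, called narrower regions below. Wide regions made up 11.3% of the 3403 shared gene-end regions, a share that the width rule itself set.

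The series profiled BRD8 by chromatin immunoprecipitation and sequencing (ChIP-seq) in HCT116 and SW480, both established human colorectal carcinoma lines without any treatment named in the labels. Each line gave 1 BRD8 library and 1 input library. Cells were fixed for 10 min with 1% formaldehyde, chromatin was cut with micrococcal nuclease, and 2 µg of a polyclonal BRD8 antibody was used. With 1 ChIP library per line no difference has a replicate check, so shares carry 95% Wilson intervals and medians 95% order-statistic intervals, which cover counting error and the spread among regions of these libraries only. Each line is 1 population, and a difference between the lines cannot be told apart from a difference between the libraries. Of 10 marker genes of intestinal epithelium, 4 had a gene-end region in HCT116 and 0 in SW480, and of 21 marker genes of other tissues 1 and 0 had one, so the identity of the cells rests on the labels.

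BRD8 is a bromodomain protein of the TIP60/NuA4 complex, which acetylates histones H4 and H2A and helps exchange the histone variant H2A.Z at promoters. Broad domains of chromatin marks and of bound factors at promoters are known from some genes that a cell transcribes strongly, but transcription was not measured here. Many mRNAs of the translation machinery begin with a C followed by an uninterrupted run of pyrimidines, the 5′ terminal oligopyrimidine tract, through which mTOR signalling controls their translation. Small nucleolar RNAs (snoRNAs), which guide the chemical modification of ribosomal RNA, are mostly cut from introns of host genes, some ribosomal protein genes among them.

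A minority of the members' genes have that tract. Of 312 members with a promoter in the RefSeq GRCh38.p14 table, 42, 13.5%, had a C followed by at least 4 more pyrimidines exactly at the annotated start, beside 7.50% of shared gene-end promoters and 4.60% of all coding promoters. Narrower regions had 6.73%, a difference of 6.73 percentage points. With both groups kept to the members' interquartile range of HCT116 peak strength (−log10 q), the shares were 11.5% and 9.51%. The interval of that difference, −2.94 to 8.26 points, includes none and also the 6.73 points. None of the 6 widest members has the tract, and the 8 widest that do are shown from 60 bases before to 20 bases after the start, read 5′ to 3′ along the gene, with the tract in capitals. These and the next sequences were picked after their widths were known. At TRAF7 the domain ended at −373 bp from the start, so the sequence shown lies outside it. The start is that of the promoter table, which equals the 5′ end of the gene table in 278 of 310 members (89.7%) and, among the 12 genes shown here and below, lies 62 bp inside it at RABGGTB and 326 bp inside it at HSPA8.
RABGGTB, chr1:75786196-75786275, plus strand: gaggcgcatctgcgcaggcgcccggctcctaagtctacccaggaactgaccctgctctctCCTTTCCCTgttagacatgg
TRAF7, chr16:2155722-2155801, plus strand: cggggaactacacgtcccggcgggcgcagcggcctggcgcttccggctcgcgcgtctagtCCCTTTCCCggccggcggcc
EEF1A1, chr6:73521013-73521092, minus strand: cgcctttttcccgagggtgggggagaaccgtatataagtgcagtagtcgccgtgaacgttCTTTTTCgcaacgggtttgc
RACK1, chr5:181243887-181243966, minus strand: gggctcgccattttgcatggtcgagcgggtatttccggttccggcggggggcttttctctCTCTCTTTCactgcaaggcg
RPL35, chr9:124861938-124862017, minus strand: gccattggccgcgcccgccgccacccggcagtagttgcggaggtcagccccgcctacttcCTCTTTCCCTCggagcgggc
EIF4B, chr12:53006396-53006475, plus strand: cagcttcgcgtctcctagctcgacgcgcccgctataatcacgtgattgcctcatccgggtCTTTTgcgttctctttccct
TAF1D, chr11:93741476-93741555, minus strand: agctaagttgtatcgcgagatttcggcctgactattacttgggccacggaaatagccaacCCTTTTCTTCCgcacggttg
RPL41, chr12:56116573-56116652, plus strand: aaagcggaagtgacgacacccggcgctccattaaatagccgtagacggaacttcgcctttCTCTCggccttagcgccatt

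The tract lengths above ran from 5 bases at EIF4B and RPL41 to 11 bases at RPL35 and TAF1D. EIF4B carries a longer pyrimidine run a few bases further in, so the measured length depends on which start the annotation uses. RABGGTB, a prenyltransferase subunit gene, holds 3 annotated snoRNAs, and TAF1D, a subunit of the RNA polymerase I factor SL1, holds 8, the most of any member gene.

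The letters TATAA, the core of the TATA box, lay 40 to 20 bases before the start in 23 member promoters, 7.37% (4.96 to 10.8), EEF1A1 and EIF4B above among them. The share was 5.65% over all coding promoters, inside that interval, and 2.26% at narrower regions. The next 4 widest are shown in the same frame, with TATAA in capitals.
EIF4A1, chr17:7572765-7572844, plus strand: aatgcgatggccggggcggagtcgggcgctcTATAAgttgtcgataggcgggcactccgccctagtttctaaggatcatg
PPIA, chr7:44796621-44796700, plus strand: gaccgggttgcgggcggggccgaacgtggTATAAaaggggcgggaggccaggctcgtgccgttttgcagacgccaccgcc
HSPA8, chr11:123062117-123062196, minus strand: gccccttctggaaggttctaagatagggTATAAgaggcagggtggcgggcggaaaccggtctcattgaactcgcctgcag
RPLP0, chr12:120201092-120201171, minus strand: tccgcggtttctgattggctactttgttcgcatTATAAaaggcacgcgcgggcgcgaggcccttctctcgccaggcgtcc

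EIF4A1 is an RNA helicase of translation initiation, PPIA is cyclophilin A, HSPA8 is the constitutive HSP70 chaperone and RPLP0 is a protein of the ribosomal stalk. RPLP0 has both features, with a tract of 9 bases at its start. The remaining promoters with TATAA included MAT2A, ATF4, ODC1, EEF2 and RPS18.

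Member widths ran from 3006 to 8396 bp with a median of 3582 bp. Members were chosen by this HCT116 width and by the SW480 overlap, and neither is a finding. At the boundary, CDC123 and ZNF143 at 3006 bp, LARS1 at 3007 bp, DDX39B at 3008 bp and RPL9 at 3009 bp were just inside. RNF13 at 2998 bp, WDR77, SFXN2 and CIMAP1B at 2995 bp and ANKRD17 at 2994 bp were just outside. Width rose with the deposited strength of the region, with a rank correlation of 0.607 between HCT116 width and −log10 q over 3403 regions of this 1 library. Choosing wide regions therefore also chose strong ones. The deposited fold enrichment, which is ChIP signal over local background at the summit, had a median of 8.87 in members and 5.71 in narrower HCT116 regions, and the median −log10 q was 39.8 and 16.5. These HCT116 values describe the choice and support nothing.

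The widest domain, 8396 bp, lay at ATG12, which encodes a ubiquitin-like protein of autophagy, and also held the start of AP3S1. In HCT116 it had a fold of 5.63, and in SW480 a single region of 419 bp with a fold of 2.10. That SW480 region covered 4.99% of the domain, the smallest share of any member. MDC1, a mediator of the DNA damage checkpoint that shares its domain with the tubulin gene TUBB, followed at 8028 bp. Its fold was 13.4 in HCT116 and 8.31 in SW480, and 5 separate SW480 regions covered 54.2% of it. HNRNPA2B1, a splicing factor whose start faces that of CBX3, spanned 7086 bp and had 2 SW480 regions that together held 4480 bp. The widest domains thus ranged from nearly empty to well filled in the other line.

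SKA2, a kinetochore gene, spanned 6851 bp with 1199 bp of SW480 regions. The glycolytic enzyme gene ENO1 spanned 6818 bp with 2643 bp, and MRPL18, next to the chaperonin gene TCP1, spanned 6726 bp with 1098 bp. RABGGTB followed at 6606 bp, TRAF7 at 6602 bp, the elongation factor gene EEF1A1 at 6515 bp and the ribosome-associated scaffold gene RACK1 at 6408 bp. RPL35 measured 6198 bp and SLC3A2, the heavy chain of an amino acid transporter, 6139 bp. The map of these 12 domains places each around its start, and the TRAF7 domain was the exception that ended before the start and ran across RAB26.

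**Figure D1:**
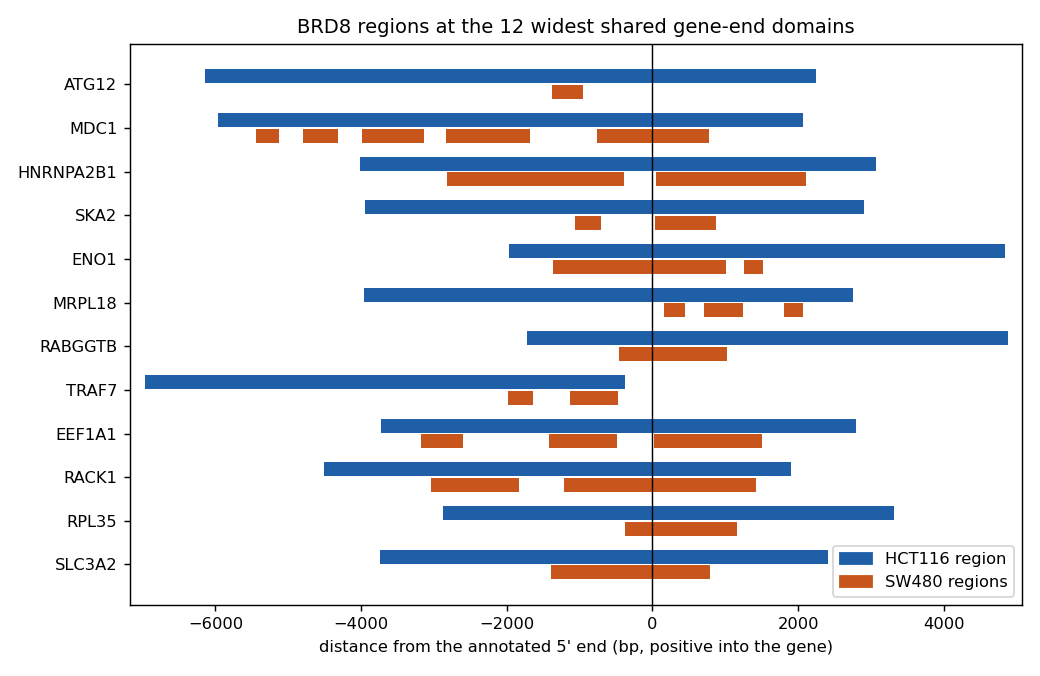
Extent of the HCT116 region and of the SW480 regions inside it at the 12 widest members; the horizontal axis is distance from the annotated 5′ end in bp, positive into the gene, and each row is 1 gene. ATG12 has 1 SW480 region of 419 bp in a domain of 8396 bp, whereas MDC1 has 5.

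The rule did not use SW480 widths, but a wide region has more room for SW480 regions. Summed widths and shares touched therefore grow in part with the width that chose the members. Summed over the SW480 regions that touched a member, the median width was 1464 bp (1343 to 1585, n = 385), against 595.5 bp (580 to 614, n = 3018) at narrower regions. An SW480 region of at least 1000 bp touched 208 members, 54.0% (49.0 to 58.9), and 18.7% of narrower regions, where 10.9% of all SW480 regions were that wide. The ratio of the medians, 2.46, was 1.65 (interval 1.40 to 1.91) among regions with an HCT116 −log10 q inside the members' interquartile range, and 1.61 against narrower regions of at least 2000 bp. SW480 regions covered a median of 38.4% of a member and 43.1% of a narrower region. The SW480 region of highest −log10 q had a median width of 974 bp (879 to 1114) at members and 533 bp (519 to 549) at narrower regions. It was 723.5 bp at narrower regions of at least 2000 bp, and members with several pieces had more regions to choose from.

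Several SW480 regions often lay in 1 member. More than 1 SW480 region touched 193 of 385 members, 50.1% (45.2 to 55.1), 14.9% of narrower regions (13.7 to 16.2) and 30.7% of those of at least 2000 bp. A wider region has more room for several SW480 regions, so this count grows with the width that chose the members. MRPS18B, a mitochondrial ribosomal protein gene beside PPP1R10, had 6 pieces, the most of all members, and MDC1 and the chromatin gene SETD5 had 5 each. When only SW480 regions with a −log10 q of at least 5 were kept, the shares were 22.9% and 6.998%. At the other end, a single SW480 region covered 99.2% of the domain of MAT2A, which makes S-adenosylmethionine, and 97.4% of that of EIF4A2. HNRNPA1 had the most SW480 bases inside, 4622 of its 4947 bp, followed by MATR3 with 4513, HNRNPA2B1 with 4480, MDC1 with 4348, MAT2A with 4286, the purine synthesis gene GART with 4057, EIF4A2 with 3838 and RACK1 with 3836.

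The coverage plot around 5′ ends shows where the pieces lie. It uses the 317 members whose nearest end is a 5′ end. HCT116 regions covered 96.8% of these ends and at least 96.5% of positions sampled between 500 bp upstream and 1000 bp downstream. SW480 regions covered 62.1% of members at 400 bp upstream, 44.8% at 100 bp upstream, 47.0% at the end itself and 67.8% at 200 bp downstream. The narrower regions showed the same dip in SW480, from 39.9% at 300 bp upstream to 31.2% at 100 bp upstream and 55.7% at 200 bp downstream. In HCT116 the corresponding dip was visible at narrower regions only as 73.4% at 200 bp and 72.5% at 100 bp upstream.

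**Figure D2:**
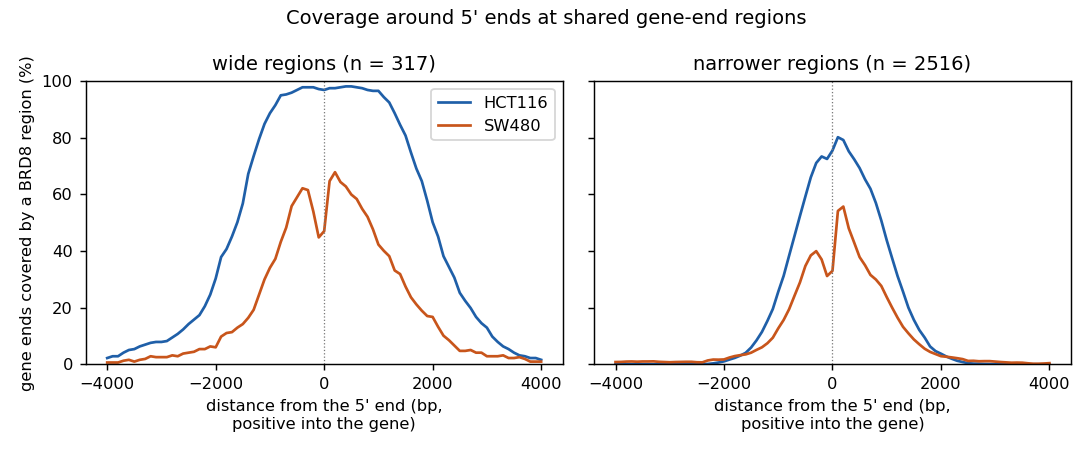
Share of 5′ ends covered by a BRD8 region in each line (vertical axis, %) against distance from the end in bp, for 317 wide and 2516 narrower shared regions. SW480 coverage of the wide group falls to 44.8% at 100 bp upstream between peaks of 62.1% and 67.8%.

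Nearly all domains belonged to gene starts. The strand of the nearest gene was known for 322 members, and in 317 of them, 98.4% (96.4 to 99.3), the nearest end was the 5′ end, with 97.3% among narrower regions. The 5 members nearest a 3′ end were OXLD1, BSN, DUSP28, BCAN and LOC128092247. From the 5′ end the members reached a median of 1610 bp upstream and 2008 bp into the gene, and the summit lay at +125 bp (99 to 138), beside +126.5 bp at narrower regions. The gene side held 55.1% of the width of a member (52.5 to 57.0) and 59.0% at narrower regions (57.8 to 60.4). The interval of this difference included none with a width minimum of 2500 bp (−4.77 to 0.0505 points) or 4000 bp (−8.03 to 0.409). It did so too with a gene-end window of 500 bp (−5.16 to 0.631), but not in the other settings. In members whose region held ends of a single gene (n = 189), the upstream reach was 1497 bp and the reach into the gene 2108 bp, a gene side of 58.0% (55.4 to 60.8) beside 59.1% at narrower single-gene regions.

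A wide region has more room for gene ends, and 145 members, 37.7% (33.0 to 42.6), held ends of more than 1 coding gene against 14.9% of narrower regions. The share was 26.5% among narrower regions of at least 2000 bp. Facing pairs included ATG12 with AP3S1, GART with the splicing factor gene SON, DDX42 with CCDC47, and HNRNPA1 with CBX5. The domains of RPL41, OXLD1, HDDC3, RPS28 and LOC128092247 spanned the whole nearest gene. Members' genes were shorter than those at narrower regions, with a median length of 22216 bp (18188 to 25357) beside 30926 bp (29406 to 32909). At narrower regions of at least 2000 bp the median was 29457 bp (27202 to 32057).

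The summits of both lines often coincided. A SW480 region lay over the HCT116 summit in 330 members, 85.7% (81.9 to 88.9), and in 80.6% of narrower regions. The summit of the strongest SW480 region by −log10 q was within 250 bp in 63.1% of members and in 69.9% of narrower regions. The median gap was 70 bp and 74 bp. The gap was widest at CKS2, 3082 bp, a small subunit of cyclin-dependent kinases.

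The rule set no SW480 fold, but the overlap it requires limits the values to regions called in SW480. Fold enrichment of SW480 was taken from the overlapping region of highest −log10 q, so that members with several pieces had more regions to choose from. It had a median of 4.02 (3.87 to 4.20) at members and 3.32 (3.27 to 3.36) at narrower regions. Within the members' interquartile range of HCT116 −log10 q the medians were 3.97 and 3.80, with a ratio of 1.05 whose interval, 0.986 to 1.10, included no difference. The median SW480 −log10 q was 12.9 and 6.71. Fold values of the lines correlated with a rank coefficient of 0.436 over the 385 members and 0.304 over the narrower regions, a description in which all points share the same pair of libraries.

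DDX42, an RNA helicase gene of the spliceosome, had the highest SW480 fold, 16.3, and an HCT116 fold of 27.6. IARS1, the isoleucyl-tRNA synthetase gene, also had 16.3 in SW480, above its HCT116 fold of 14.2. GDI2 with 12.8, the tyrosyl-tRNA synthetase gene YARS1 with 12.7 and the protease gene NRDC with 12.2 came next in SW480. The HCT116 ranking was led by HNRNPA1 with 28.3, followed by GABPB1, a subunit of an ETS-type promoter factor, with 28.1, ZNF598, a sensor of collided ribosomes, with 28.1, DDX42 with 27.6 and EIF3E with 26.5. Of these only DDX42 was among the highest 5 in both lines. The weakest SW480 evidence, by −log10 q, was 1.43 at ATG12, 1.54 at RBBP6, 1.65 at SLC25A10, 2.04 at ACADM and 2.30 at DDX17.

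The HCT116 fold was at least 2 times the SW480 fold in 232 members, 60.3% (55.3 to 65.0), in 35.0% of narrower regions and in 30.6% of all shared regions. Since HCT116 strength rose with the width that chose the members, this ratio is partly set by the rule. The fold was higher in SW480 in 7 members, 1.82% (0.883 to 3.70), namely RCC1, IARS1, PXT1, SLC25A32, RBBP6, CKS2 and NRDC. It was so in 305 narrower regions, 10.1%, and in 5.10% of those of at least 2000 bp. At RCC1, the nucleotide exchange factor of the GTPase Ran, the fold was 4.65 in HCT116 and 5.39 in SW480.

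**Figure D3:**
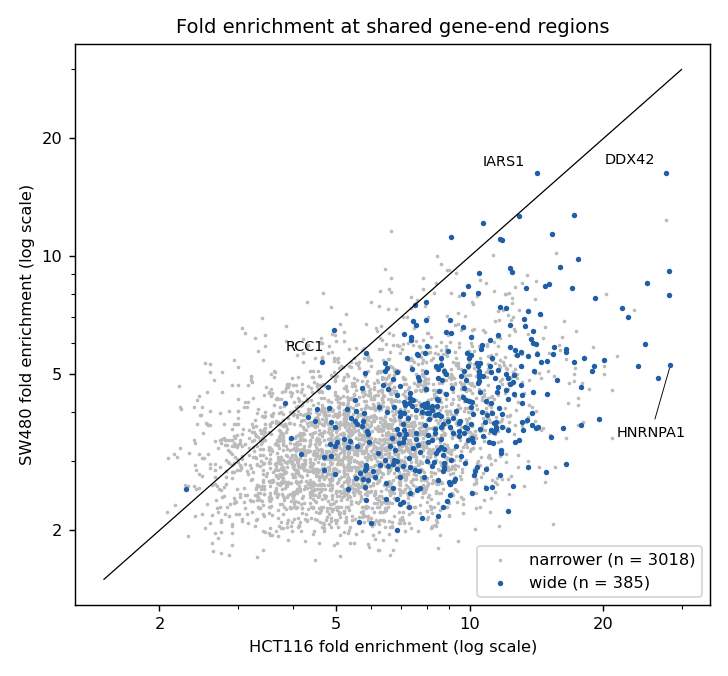
Deposited fold enrichment of each shared gene-end region in HCT116 (horizontal) and of the overlapping SW480 region of highest −log10 q (vertical), both on log scales, for 385 wide and 3018 narrower regions; the line marks equal folds. Wide regions lie mostly below the line, with 7 above it.

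Fold depends on the local background as well as on the pileup of ChIP fragments, and both were solved from the deposited fold and p-value for all 3403 regions. The median pileup of members was 70 fragments in HCT116 and 51 in SW480, over backgrounds of 6.51 and 11.3, and of narrower regions 41 and 39 over 6.22 and 10.9. The ratio of pileups at members had a median of 1.34, whereas the ratio of folds was 2.19. Read depth is unknown, so equal pileups in the 2 libraries need not mean equal BRD8 signal. Because HCT116 strength rose with the width that chose the members, both ratios are partly set by the rule. HNRNPA1 shows the gap, with pileups of 179 and 146 fragments over backgrounds of 5.36 and 26.8. RACK1 had nearly equal pileups, 125 and 122, over backgrounds of 20.1 and 57.9, and folds of 5.98 and 2.09. At DDX42 the pileups were 328 and 127 over 10.9 and 6.84.

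Overlap with SW480 is part of the rule, so its share is given as a description. Of 424 wide HCT116 regions at coding gene ends, 385 overlapped a SW480 region, 90.8% (87.7 to 93.2), against 3018 of 8489 narrower ones, 35.6% (34.5 to 36.6), with 38.2% for all gene-end regions. Counting only SW480 regions over the HCT116 summit, which gives a wide region no extra room, the shares were 77.8% and 28.7%. Among regions with an HCT116 −log10 q in the members' interquartile range, the shares were 91.5% and 83.0%, and against narrower regions of at least 2000 bp they were 90.8% and 77.4%. The difference of 55.3 percentage points was thus 8.46 points within that range of strength.

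The members were counted in 18 gene lists, each count read against the 11.3% of shared gene-end regions that were wide. These lists and the members were chosen with results of these data known. The nearest gene of 83 of the 385 members was in at least 1 list. Outside all lists 302 of 3113 shared regions, 9.70%, were wide.

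Genes of cytosolic protein synthesis came in 2 of the lists, and mitochondrial ribosomal protein genes are given below with the remaining lists. Cytosolic ribosomal protein genes were nearest to 68 shared regions, of which 31, 45.6% (34.3 to 57.3), were wide. Proteins of the small subunit gave 12 of 27 and those of the large subunit 19 of 41. RPL35 with 6198 bp, RPL41 with 5591 bp and RPLP0 with 4439 bp were the widest. At RPL41 the fold was 8.75 in HCT116 and 5.11 in SW480, and 4 SW480 regions together spanned 3608 bp. At RPS2 the SW480 region was only 357 bp, so wide ribosomal domains were not all wide in the other line.

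Translation factors gave 9 wide regions of 28, 32.1% (17.9 to 50.7). EEF1A1, which delivers aminoacyl-tRNA to the ribosome, had 3 SW480 regions and folds of 11.6 and 6.30. EIF4B, a cofactor of the helicase EIF4A, spanned 6034 bp with folds of 12.6 and 4.99, and EIF4A1 spanned 5402 bp with 14.7 and 8.39. EIF3E, by contrast, had a fold of 26.5 in HCT116 and 4.90 over 679 bp in SW480.

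Splicing factors of the HNRNP and SR families gave 13 of 31, 41.9% (26.4 to 59.2). HNRNPA2B1, HNRNPA1 and HNRNPF were the widest, at 7086, 4947 and 4931 bp. The other members of the list were HNRNPR, HNRNPA3, HNRNPH3, HNRNPD, HNRNPC, SRSF1, SRSF7, SRSF10, TRA2B and SRRM2. TRA2B, a regulator of alternative splicing, was the one most filled in SW480, where a single region covered 96.2% of its 3760 bp.

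Chaperones gave 7 of 18, 38.9% (20.3 to 61.4). They were the mitochondrial chaperonin HSPD1 with 5362 bp, the chaperonin subunits CCT5 with 5216 bp and CCT3, and HSPA8, HSP90AB1, HSPA4 and HSPH1. CCT3 had folds of 12.3 and 9.35, and HSPH1 had lower and nearly equal folds of 3.96 and 3.45. Genes of the integrated stress response gave 4 of 13, 30.8% (12.7 to 57.6), namely SLC3A2, the pathway's transcription factor ATF4 with folds of 12.5 and 9.14, MTHFD2 of mitochondrial folate metabolism and HERPUD1 of protein degradation at the endoplasmic reticulum.

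The remaining lists had few members, and their intervals included 11.3%. Mitochondrial ribosomal protein genes gave 3 of 21 (MRPL18, MRPS18B and MRPL12), and chromatin regulators 2 of 15 (SMARCC1 and CHD1). G1/S genes gave 2 of 15 (E2F3 and E2F2), immediate early genes 1 of 8 (ZFP36L1) and origin licensing genes 1 of 13 (DBF4). Genes of RNA polymerase II pausing gave 0 of 10, p53 target genes 0 of 6, epithelial structure genes 0 of 4, and epithelial transcription factors 0 of 3. Lineage genes of other tissues had no shared gene-end region.

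TIP60/NuA4 subunit genes gave 0 of 9, an interval of up to 29.9%. BRD8 bound the end of its own gene with a region of 2156 bp and folds of 8.18 in HCT116 and 2.82 in SW480. ACTL6A at 2707 bp and MORF4L2 at 2163 bp were the other subunit genes above 2000 bp, and the acetyltransferase gene KAT5 had 1183 bp. The subunit gene MBTD1 had an end inside the member named for UTP18, whose summit lay nearer.

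**Figure D4:**
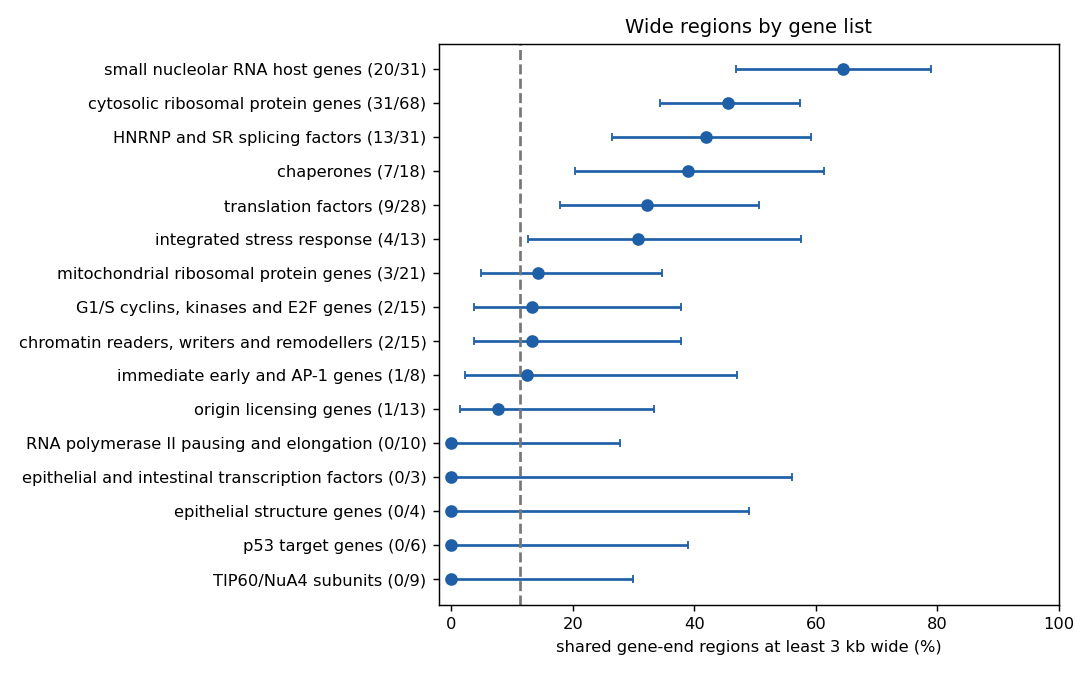
Share of shared gene-end regions that are at least 3 kb wide (horizontal axis, %) for each gene list described here that had such regions, with 95% Wilson intervals and counts of wide over shared regions beside each name; the dashed line marks 11.3% for all lists and genes together. snoRNA hosts at 64.5%, ribosomal proteins at 45.6% and splicing factors at 41.9% lie farthest to the right.

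Among the lists, the chosen list of snoRNA host genes had the highest share of wide regions, above the 33.8% of all annotated snoRNA-holding genes. The list of host genes gave 20 wide regions of 31, 64.5% (46.9 to 78.9), and without ribosomal protein genes 10 of 16, 62.5% (38.6 to 81.5). By the annotation, 52 members had a snoRNA inside the nearest gene, 13.5% (10.5 to 17.3), against 3.38% of narrower regions (2.79 to 4.09), 5.35% of those of at least 2000 bp, 4.53% of all shared gene-end regions and 2.63% of all coding genes. Read the other way, 52 of 154 shared regions at snoRNA-holding genes were wide, 33.8% (26.8 to 41.6), and 10.2% of those at other genes. Without ribosomal protein genes the shares of members and narrower regions were 10.7% and 3.02%. Within the members' interquartile range of −log10 q they were 14.0% and 5.48%.

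Of the 52 genes, 30 held more than 1 snoRNA. TAF1D with 8 spanned 5679 bp, with folds of 12.3 in HCT116 and 6.70 in SW480. EIF4A2, NOP56, a core protein of snoRNA particles, and the nucleolar GTPase gene GNL3 held 5 each. RACK1 with 2 and RCC1 with 3 spanned 6408 and 5434 bp. The domain itself overlapped at least 1 annotated snoRNA in 22 of the 52, whether of the nearest gene or of another. Members with a snoRNA gene inside the region numbered 29, 7.53% (5.30 to 10.6), against 10 narrower regions, 0.331%, and this count grows with width by construction.

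The promoter features shown at the outset were counted in the same way. The pyrimidine tract was at the start of 42 of 312 member promoters, 13.5% (10.1 to 17.7), of 164 of 2436 narrower ones, 6.73% (5.80 to 7.80), of 7.50% of both together and of 4.60% of all 15812 coding promoters. Without ribosomal protein genes the shares were 9.34% (6.50 to 13.3) and 5.78% (4.92 to 6.79). Within the members' interquartile range of −log10 q they were 11.5% and 9.51%, a difference of 1.96 percentage points with an interval of −2.94 to 8.26 that includes none.

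TATAA 40 to 20 bases before the start, in 7.37% of member promoters, was in 2.26% of narrower ones (1.74 to 2.93), in 2.29% of those of at least 2000 bp and in 5.65% of all coding promoters. Members were thus above the narrower regions, while the interval of the members included the share of all promoters. Over the whole 300 bases, TATAAA on either strand gave 9.94%, 4.27% and 9.64%.

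Of the other motifs searched as exact letters on both strands, most differed little between members and narrower regions. The ETS motif CCGGAAGT was in 11.5% of members, 12.3% of narrower regions and 6.20% of all promoters, and its shorter core CCGGAAG, which every ETS match also holds, in 25.3%, 25.9% and 14.2%. GGGCGGG, bound by SP and KLF factors, was in 51.3%, 54.6% and 44.4%, CCAAT, bound by NF-Y, in 43.3%, 38.3% and 36.3%, and CACGTG, the E-box, in 15.7%, 14.1% and 8.87%. AAGATGGC, bound by YY1, was in 9.29%, 7.31% and 3.91%, and in 3.21% of members when the 50 bases after the start were left out. GCATGCGC, part of the NRF1 site, was in 3.53% of members (1.98 to 6.20) and in 7.22% of narrower regions (6.26 to 8.32). Its share of all promoters, 4.26%, lay inside the members' interval and below that of the narrower regions. The letters of CRE (TGACGTCA), BANP (CTCGCGAG), E2F (TTCCCGCC), AP-1 (TGACTCA) and ZNF143 (ACTACAA) were in 3.85%, 3.85%, 7.05%, 3.53% and 3.53% of members, in 3.90%, 2.67%, 6.32%, 2.67% and 4.35% of narrower regions and in 2.59%, 1.53%, 4.24%, 3.67% and 3.15% of all promoters. The members' intervals included the narrower share for each, and lay above the share of all promoters for BANP (2.21 to 6.60) and E2F (4.70 to 10.4). The median ratio of observed to expected CpG was 0.920 at members (0.896 to 0.939), 0.884 at narrower regions and 0.763 over all coding promoters. The ratio of members to narrower regions, 1.04 (1.01 to 1.07), had an interval that included 1 within the members' range of −log10 q (0.978 to 1.07), against narrower regions of at least 2000 bp (0.998 to 1.06) and with a width minimum of 2500 bp (from 0.998) or 4000 bp (from 0.999).

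These measures were followed over classes of HCT116 width, where the room for SW480 regions grows from class to class. The summed SW480 width had a median of 432.5 bp under 1000 bp, 590.5 bp from 1000 to 2000 bp, 912 bp up to 3000 bp, 1347.5 bp up to 4000 bp and 1822 bp above. The SW480 fold was 3.21, 3.23, 3.61, 3.94 and 4.58 in the same classes. The classes were not restricted by HCT116 −log10 q, which rose with width. Within the members' interquartile range of it, the ratio of SW480 folds, 1.05, had an interval that included no difference. The share of snoRNA-holding genes was 2.89%, 2.53%, 5.35%, 13.6% and 13.3%, and that of pyrimidine tracts 5.30%, 6.23%, 9.01%, 10.96% and 19.4%. On either side of 3000 bp the intervals did not overlap for SW480 width (862 to 963 and 1184 to 1480 bp), SW480 fold (3.52 to 3.69 and 3.77 to 4.12) or the snoRNA share (3.99 to 7.13 and 10.03 to 18.2), and overlapped for the tract (7.05 to 11.4 and 7.48 to 15.8).

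**Figure D5:**
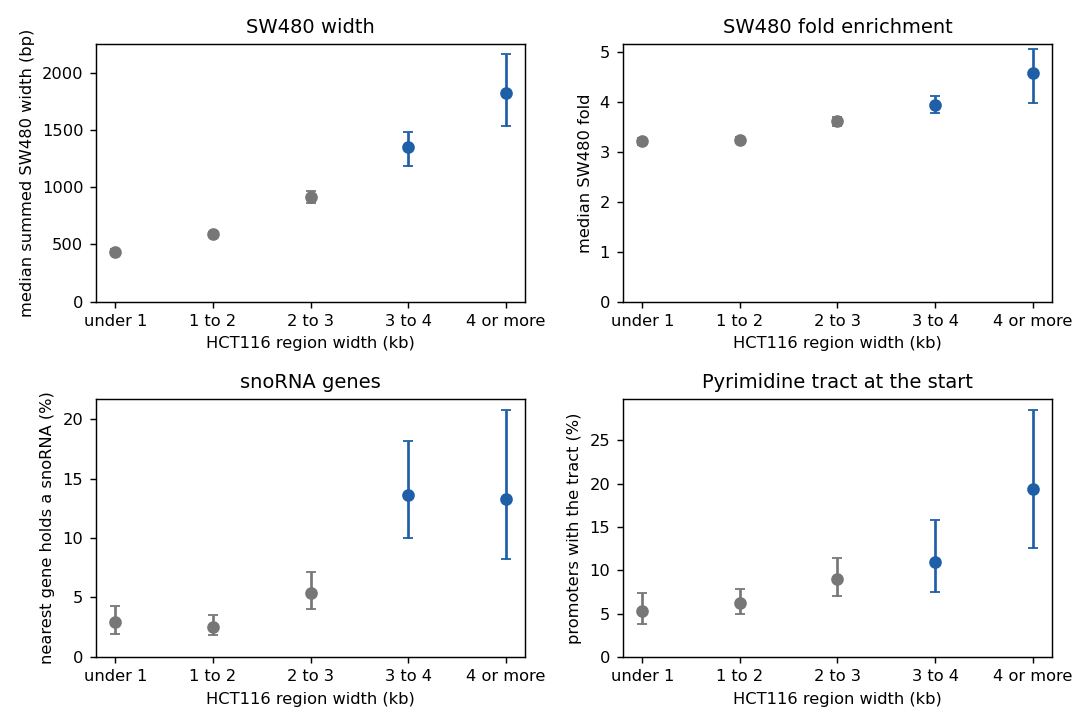
Shared gene-end regions by HCT116 width class in kb (n = 830, 1384, 804, 272 and 113), with median summed SW480 width in bp, median SW480 fold, share of nearest genes with a snoRNA and share of promoters with a pyrimidine tract, each with its 95% interval; members are blue. Summed SW480 width increases from 432.5 to 1822 bp.

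The members were spread over all chromosomes. Chromosome 17 held 41 of its 207 shared gene-end regions as members, 19.8% (14.9 to 25.8), above the 11.3% of the whole. The X chromosome held 2 of 81, 2.47% (0.680 to 8.56). Chromosome 14 held 8 of 132, 6.06% (3.10 to 11.50), and chromosome 7 held 13 of 189, 6.88% (4.06 to 11.41), and both intervals included 11.3%. These chromosomes were picked after their counts were seen. Copy number was not measured here, and its part in these counts was not tested.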

How the data were processed

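BRD8 ChIP regions of 2 libraries, 1 each for HCT116 and SW480, were analysed; the 2 input libraries were not used here. The submitters' processing notes name Trimmomatic 0.33, Bowtie2 2.4.1, MACS2, deepTools and the GRCh38 build. For read totals, filters and duplicate handling, nothing is stated in the labels used here. Each deposited list holds the regions of 1 library with a fold enrichment (a ratio to local background), a −log10 p-value, a −log10 q-value, a score and a summit offset per region, and was cut by the authors at a q of about 0.05. These are the authors' values and depend on each library's depth and input.

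Pileup and background at the summit were solved from the deposited fold and p-value as MACS2 defines them (1 added to both, Poisson tail, relative tolerance 0.0001). Genes, snoRNAs and promoters came from RefSeq tables of GRCh38.p14, and coordinates are 1-based. Of 19970 coding genes, 15812 had a promoter entry of 300 bases, which also gave the strand. CpG content is the count of CG times the promoter length over the product of the C and G counts. A gene was matched to a region by the end nearest to the summit, and the overlapping SW480 region of highest −log10 q gave the SW480 fold. Shares and medians were compared without tests, because regions of 1 library are not replicates. Pileup recovery and the interval code were tested on simulated data.

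The members, gene lists and motifs were chosen with earlier results of these data known. One of the gene lists is left unreported. Named genes are the 12 widest members, the 8 with most SW480 bases, the 5 highest by fold in each line, the 5 lowest by SW480 −log10 q, the 5 on either side of the width minimum, the 3 widest of each list, and TIP60/NuA4 subunits. Other names were chosen after their values were seen. Alternatives changed the width minimum, gene-end window, overlap, SW480 threshold, joining of close regions, the narrower group, the strength range and the promoter window. Python 3.11.15, pandas 2.3.3, NumPy 2.4.6, SciPy 1.17.1 and matplotlib 3.10.9 were used.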

Additional observations from a re-analysis of the deposited data

How the results depend on the processing

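Of 100 recalculations of the comparisons, 69 stayed within the interval of the value reported (for the number of members, which has none, within 1.5 times it), 31 moved beyond that and 0 reversed. The number of members was 707 with a minimum of 2500 bp, 113 with 4000 bp and 602 when HCT116 regions under 500 bp apart were joined. The ratio of SW480 widths (2.46) was 2.19 with 2500 bp, 2.87 with 4000 bp, 1.97 with SW480 −log10 q of at least 5, 2.13 with joined regions, 2.11 against narrower regions of at least 1000 bp, 1.61 against those of at least 2000 bp, and 1.65 in the members' interquartile range of −log10 q. In the order 4000 bp, SW480 threshold, 2000 bp and interquartile range, the ratio of SW480 folds (1.21) was 1.36, 1.12, 1.11 and 1.05, and the difference in the share with more than 1 SW480 region (35.3 percentage points) was 48.2, 15.9, 19.4 and 27.3. The difference in regions with ends of more than 1 gene (22.7) was 29.5 with 4000 bp, 11.2 against at least 2000 bp and 14.9 in the interquartile range. The difference in SW480 overlap (55.3) was 58.4 with 4000 bp, 58.0 with a 2 kb window, 46.0 with joined regions, 31.9 and 13.4 against at least 1000 and 2000 bp, 8.46 in the interquartile range and 49.2 over the summit. The snoRNA difference (10.1) was 6.79 with 2500 bp. The tract difference (6.73) was 12.3 with 4000 bp and 1.96 in the interquartile range. The causes were not tested beyond what each alternative changes. The comparison with regions of at least 2000 bp, the summit overlap, and the snoRNA and tract results were added after the data were seen. Of 67 recalculated list counts and motif shares, 47 stayed and 20 moved.

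Both lines have 1 ChIP library, so every difference between groups of regions describes these libraries. No paired analysis was possible because the labels give no replicate numbers and each line has 1 library. HCT116 width rises with signal strength. The alternatives restricted to a common range of strength, within which strength was not matched, or to regions of at least 2000 bp bear on this only in part. Region boundaries come from the peak caller, read depth is unknown, and a low SW480 signal can split or hide a domain. Strand was known for 322 of the 385 nearest genes.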

Other observations

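HCT116 had 597 regions of at least 3000 bp in all, of which 212 were not members. Wide regions at coding gene ends without a SW480 region numbered 39. They included the origin licensing gene CDT1 with 4053 bp and a fold of 6.32, the splicing factor gene SRSF2 with 4045 bp and 4.59, and the centromere chaperone gene HJURP with 3807 bp and 9.09.

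The other 173 wide regions had their summit farther than 1000 bp from any coding gene end. SW480 regions overlapped 129 of them, 112 lay inside a coding gene, and 48 had their summit at the end of another annotated gene. Several belonged to genes of the kinds described above or to RNA genes. BRD2, a bromodomain protein gene, had 6571 bp with the summit 1206 bp from the nearest end, and HNRNPDL had 6139 bp at 1214 bp. The microRNA cluster that includes MIR17 had 5743 bp and a fold of 41.3, above every member, and 2 SW480 regions. RRM2, a ribonucleotide reductase subunit gene, had 5664 bp and a fold of 21.9, and the snoRNA host SNHG5 had 5339 bp and 7.06. ABCC2, a transporter gene, had 8297 bp and a fold of 6.09 without a SW480 region. The genes above were chosen after their values were seen.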
